A study of Mus musculus with 16 samples.

Results

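The 10 libraries described here are the 5 with the highest and the 5 with the lowest Fasn level among 16 RNA-seq libraries of iWAT, the inguinal white fat that lies under the skin of the mouse groin. They were selected on their Fasn CPM (counts per 1e6 counts of the library), whatever the genotype, and the other 6 libraries belong to neither set. Every mouse was labelled as a C57BL/6 female aged 90 days, with 4 mice in each of 4 genotypes. The WT group had no mutation. The Lepob/+ group was heterozygous for ob, a nonsense allele of the leptin gene Lep. The SOD1G93A group had many copies of a mutant human SOD1 transgene, and the SOD1G93A-Lepob/+ group, bred by crossing them, had both. The SOD1 transgene models amyotrophic lateral sclerosis and, like the ob allele, is not limited to fat. Each library is treated as 1 mouse, and a difference between libraries may include the dissection of the fat pad.

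Fasn encodes fatty acid synthase, which builds palmitate from acetyl-CoA and malonyl-CoA in the cytosol. Acly, the ATP citrate lyase, and Acss2, a cytosolic acetyl-CoA synthetase, supply the acetyl-CoA, and Acaca, an acetyl-CoA carboxylase, makes the malonyl-CoA. In white fat this pathway responds to feeding, insulin and carbohydrate through the transcription factors SREBP1c, encoded by Srebf1, and ChREBP, encoded by Mlxipl. The question was which genes outside fatty acid synthesis varied with this lipogenic state.

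The 5 Fasn-high libraries were WT replicate 3, SOD1G93A replicate 3, WT replicate 1, Lepob/+ replicate 3 and SOD1G93A replicate 1, and held 16540.4, 15376, 14721, 14433 and 12934 Fasn CPM of the column total, in that order. The 6 libraries of neither set were SOD1G93A-Lepob/+ replicates 4 and 1, WT replicate 4, SOD1G93A replicates 2 and 4, and WT replicate 2, at 12014, 11479, 9846, 8893, 8675 and 3655. The 5 Fasn-low libraries were the library labelled SOD1G93A-Lepob/+ replicate 3, Lepob/+ replicates 1 and 2, SOD1G93A-Lepob/+ replicate 2 and Lepob/+ replicate 4, at 3448, 2867, 2762, 1324 and 1156. All values below follow this order of libraries within each set. The libraries just inside and just outside the Fasn-high set differed little (12934 and 12014), as did those at the edge of the Fasn-low set (3448 and 3655). The widest step, from 8675 to 3655, lay within the 6 libraries of neither set, between SOD1G93A replicate 4 and WT replicate 2. After scaling by TMM, WT replicate 2 (3280.1 CPM) was lower than the library labelled SOD1G93A-Lepob/+ replicate 3 (3484 CPM). CPM below are after this scaling.

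Genotype was not balanced between the sets. The Fasn-high set held 2 WT, 2 SOD1G93A and 1 Lepob/+ libraries, and the Fasn-low set held 3 Lepob/+ and 2 SOD1G93A-Lepob/+ libraries. By their labels, all 5 Fasn-low libraries therefore carried the ob allele, against 1 of the 5 Fasn-high libraries. The lipogenic state and the ob allele thus cannot be told apart in this contrast. The SOD1G93A-Lepob/+ values include the library labelled replicate 3, whose sex-linked counts, given below, go against its label as female. Fasn averaged 10805 ± 5829.5 CPM (SD, n = 4) in WT mice and 5164 ± 5460.2 CPM in Lepob/+ mice. SOD1G93A mice averaged 11227 ± 3929 CPM and SOD1G93A-Lepob/+ mice 7217 ± 5658 CPM. The log2 fold change of Fasn was -1.07 ± 0.75 (SE) for Lepob/+ against WT, 0.06 ± 0.74 for SOD1G93A against WT and -0.64 ± 0.74 for SOD1G93A-Lepob/+ against SOD1G93A. None of these passed the threshold in edgeR's quasi-likelihood test over all genes (adjusted p = 1.000, 1.000 and 0.678). Acly and Acaca did not pass it either, with log2 fold changes of -0.97 ± 0.85 and -0.72 ± 0.61 for Lepob/+ against WT. Within a genotype Fasn spanned 1744 to 13320.1 CPM in Lepob/+ and 3280.1 to 16949 in WT.

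**Figure D1:**
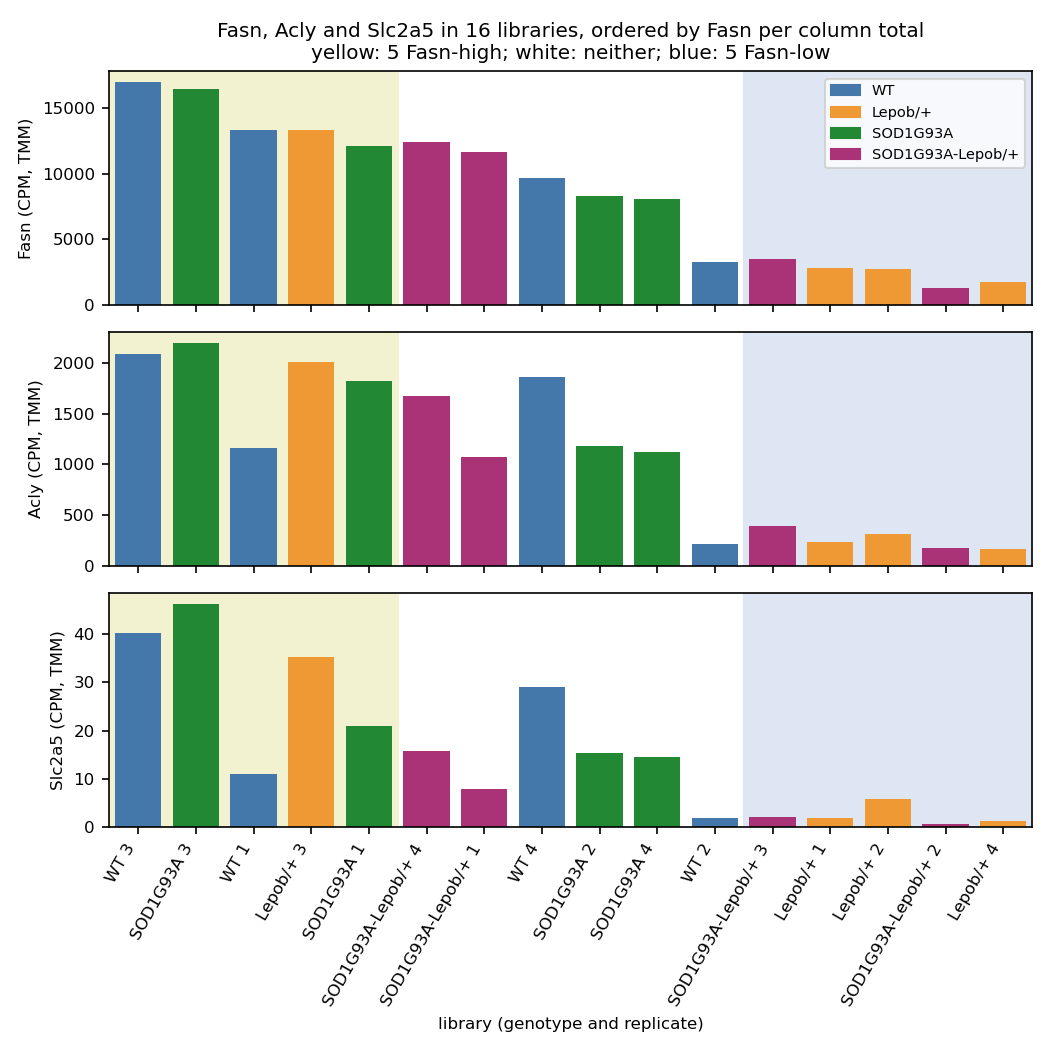
Fasn, Acly and Slc2a5 in CPM after TMM, 1 bar per library, in falling order of Fasn per column total and coloured by genotype. The Fasn-high libraries (yellow) stand above the Fasn-low libraries (blue) for all 3 genes, and WT 2, in neither set, lies with the Fasn-low libraries.

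Libraries also differed in the tissue they held. T cell, B cell and lymph node transcripts were high in 6 of the 16 libraries, of which 3 were Fasn-high (WT replicate 1, Lepob/+ replicate 3 and SOD1G93A replicate 1), 3 were in neither set and none was Fasn-low. The summed level of the 20 T cell genes ran from 25.5 to 1622 CPM in the Fasn-high set and from 27.4 to 39.1 CPM in the Fasn-low set. None of the 7 defining T cell markers was at 0 in any library, whereas Glycam1, a gene of high endothelial venules, was at 0 in 2 of 5 Fasn-high and 4 of 5 Fasn-low libraries. Skeletal muscle transcripts made up 286514 CPM in Lepob/+ replicate 4, a Fasn-low library, 7499 CPM in WT replicate 3, a Fasn-high library, and at most 542 CPM elsewhere. The library labelled SOD1G93A-Lepob/+ replicate 3 held 0 counts of Xist and 1756 counts of 4 Y-linked genes, which goes against its label as female. The defining adipocyte markers were present in every library, with Adipoq at 1209 to 3262 CPM in the Fasn-high and 1335 to 3089 CPM in the Fasn-low set. Total counts per library were 36.8 to 61.9 M, and their part in the differences was not tested. In bulk tissue, fewer cells of a type and less RNA per cell cannot be told apart.

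A gene was called not overlapping where all 5 Fasn-high libraries lay on the same side of all 5 Fasn-low libraries and the mean log2 CPM differed by at least 1. Below, "called" and "without overlap" mean that both conditions were met. Because the libraries were chosen by a value of the same contrast, these differences are descriptions and carry no test. Of 19736 genes, 110 were higher in the Fasn-high set (0.557%) and 119 were lower (0.603%). The higher share of the calls was 48.0% with TMM and 69.6% when CPM of the column total replaced it. Both counts changed when single libraries were left out. Leaving out a library loosens the separation rule, so a rise was largely fixed in advance. Without SOD1G93A replicate 3, 281 genes were higher and 366 lower, and without WT replicate 3 the counts were 210 and 195. Without Lepob/+ replicate 4, 360 genes were lower, and without the library labelled SOD1G93A-Lepob/+ replicate 3, 191 were.

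Fatty acid synthesis genes other than Fasn followed the ranking. Of the 16 listed genes beside Fasn, 6 were higher without overlap (Elovl6, Acly, Acss2, Acaca, Me1 and Slc25a1), and all 16 had a higher mean, with a median log2 difference of 1.03 against -0.02 over all genes. Acly was at 2082, 2192, 1164, 2007 and 1822 CPM in the Fasn-high libraries and at 391, 233, 314, 175 and 171 CPM in the Fasn-low libraries, a mean log2 difference of 2.89. Acaca was at 1939, 1915, 1348, 1673 and 1408 CPM in the Fasn-high libraries and at 367, 535, 606, 241 and 265 CPM in the Fasn-low libraries, a log2 difference of 2.12. Both genes were apart in every pair of libraries from the 2 sets. Elovl6, the elongase that extends palmitate to stearate, had the largest difference of the list, 3.02, at 423 to 591 against 33.4 to 125 CPM. Scd1, the main desaturase of white fat, overlapped between the sets (log2 difference 0.84).

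Outside this list, Slc2a5 had the largest difference of the named genes that did not follow the lymph node-rich libraries. Slc2a5 encodes GLUT5, the fructose transporter. Slc2a5 was at 40.3, 46.3, 11, 35.3 and 21.0 CPM in the Fasn-high libraries and at 2.06, 1.93, 5.74, 0.500 and 1.23 CPM in the Fasn-low libraries. The lowest Fasn-high library was WT replicate 1 and the highest Fasn-low library was Lepob/+ replicate 2, and the mean log2 difference was 3.98. Thrsp, the Spot 14 protein that is induced together with lipogenic enzymes, was the only 1 of 15 lipogenic regulators that was called. Thrsp was at 1857, 2017, 1280.1, 1461 and 1349 CPM in the Fasn-high libraries and at 325, 432, 479, 349 and 259.6 CPM in the Fasn-low libraries, a log2 difference of 2.12. The transcription factors themselves moved little: Srebf1 differed by 0.55 and was apart in all pairs without reaching 1, and Mlxipl differed by 0.47 with overlap.

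Enzymes that feed carbon and NADPH into lipogenesis gave 3 calls. Tkt, the transketolase of the pentose phosphate pathway, was the only called member of its list, in which 2 genes were apart in all pairs at any size. Tkt was at 2760.1, 3034, 1714, 1886 and 1992 CPM in the Fasn-high libraries and at 681, 725, 1073, 439.9 and 451 CPM in the Fasn-low libraries, a log2 difference of 1.80, while G6pdx, the first enzyme of that pathway, differed by -0.07. Among 15 genes of pyruvate and citrate supply, 14 had a higher mean (median 0.42), and Pcx, the pyruvate carboxylase, and Pdhb, a subunit of pyruvate dehydrogenase, did not overlap. Pcx was at 2291, 2110.4, 1616, 1698 and 1475 CPM in the Fasn-high libraries and at 824, 1074, 811, 714 and 1000.4 CPM in the Fasn-low libraries. Pdhb was at 283 to 415 against 123 to 259 CPM, with the highest Fasn-low value in Lepob/+ replicate 4, the library rich in muscle. Of 19 measured gene IDs of glucose uptake and glycolysis none was called, and Slc2a4, the insulin-responsive glucose transporter, differed by 0.26.

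Genes of triglyceride assembly and sterol synthesis gave 3 calls. Gpd1, which makes glycerol 3-phosphate, was at 1264 to 1943 CPM in the Fasn-high and 437 to 1195 CPM in the Fasn-low set, and Agpat2, an acyltransferase of the next steps, at 488 to 713 and 157 to 291 CPM. Their log2 differences were 1.29 and 1.41, and the other 14 genes of the list overlapped. Lss, the lanosterol synthase, was the only cholesterol gene of 21 that was called, at 28.7 to 51.6 against 15.2 to 24.8 CPM, although 16 of the 21 had a higher mean (median 0.38). With no minimum difference, 6 of the 21 were higher in all pairs of libraries, Lss included, against 253 of all 19736 genes.

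Secreted and thermogenic genes contributed a few calls. Of 17 measured adipokine genes, 2 were called higher, but 11 had a lower mean and the median difference was -0.20. Among 16 thermogenic genes (median 0.71) and 19 lipolysis and lipid droplet genes (median 0.08), Cidea alone was called. Angptl8, an insulin-induced secreted protein that acts on lipoprotein lipase activity, was at 25.9, 16.2, 10.2, 9.74 and 13.3 CPM in the Fasn-high and 7.10, 7.74, 9.56, 3.85 and 3.33 CPM in the Fasn-low libraries. Its lowest Fasn-high value, in Lepob/+ replicate 3, lay just above its highest Fasn-low value, in Lepob/+ replicate 2. Nrg4, a neuregulin secreted by fat, was at 41.2 to 79.1 against 22.7 to 31.1 CPM (log2 difference 1.13). Cidea was at 40.5, 24.3, 31.1, 196 and 72.1 CPM in the Fasn-high libraries and at 11.9, 15.4, 17.0, 7.77 and 4.76 CPM in the Fasn-low libraries. Cidea, a lipid droplet protein of brown and beige adipocytes, was highest by far in Lepob/+ replicate 3, and Ucp1, the uncoupling protein of the same cells, differed by 3.06 with overlap. The leptin gene, Lep, which the ob allele leaves transcribed, was at 681, 993, 208, 181 and 243 CPM in the Fasn-high and 1843, 558, 447, 549 and 687 CPM in the Fasn-low libraries, so its level does not check the genotype, and the sets overlapped. Of 18 mature adipocyte genes none was called and the median difference was -0.11.

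**Figure D2:**
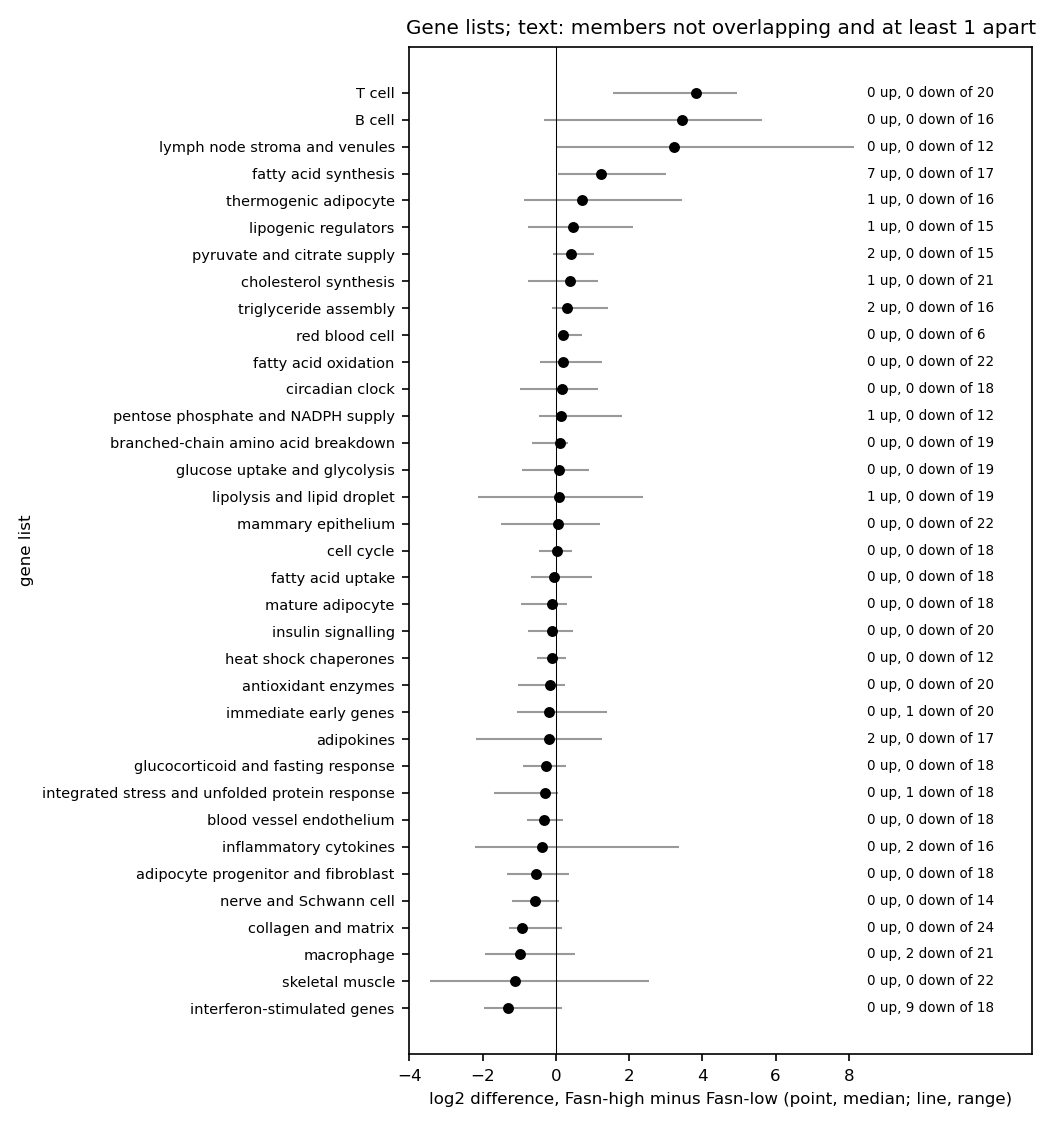
Mean log2 difference, Fasn-high minus Fasn-low, for 35 gene lists: the point is the median over measured members, the line their range, and the text the members called higher or lower. Fatty acid synthesis has 7 higher of 17, Fasn included, and interferon-stimulated genes 9 lower of 18, while the T cell list has the highest median and no call.

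The largest positive differences belonged to lymphocyte genes. Of the 12 highest named genes other than Slc2a5, Trac and Tcrg-C2 encode T cell receptor constant regions, Sit1, Ubash3a and Txk encode T cell signalling proteins, Itgae encodes the integrin CD103 and Igkv1-135 is an immunoglobulin variable gene. Sit1 was at 0.387, 0.259, 11.1, 13.4 and 9.32 CPM in the Fasn-high libraries and at 0, 0.08, 0, 0.125 and 0 CPM in the Fasn-low libraries. Trac was at 3.00, 2.26, 93.6, 111 and 89.6 CPM in the Fasn-high libraries and at 1.47, 1.15, 0.880, 1.42 and 2.1 CPM in the Fasn-low libraries. Among the Fasn-high and Fasn-low libraries, the 3 lymph node-rich ones stood far above all others for both genes. WT replicate 3 and SOD1G93A replicate 3 lay only just above the Fasn-low set. Within the same sets, Gfi1, Podnl1, Lypd6b and AI504432 were likewise highest in these 3 libraries, with log2 differences of 2.60 to 2.91. Differences of genes under about 1 CPM depend on the prior count of the log scale. All 20 T cell genes had a higher mean in the Fasn-high set (median 3.83), and none was called.

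**Figure D3:**
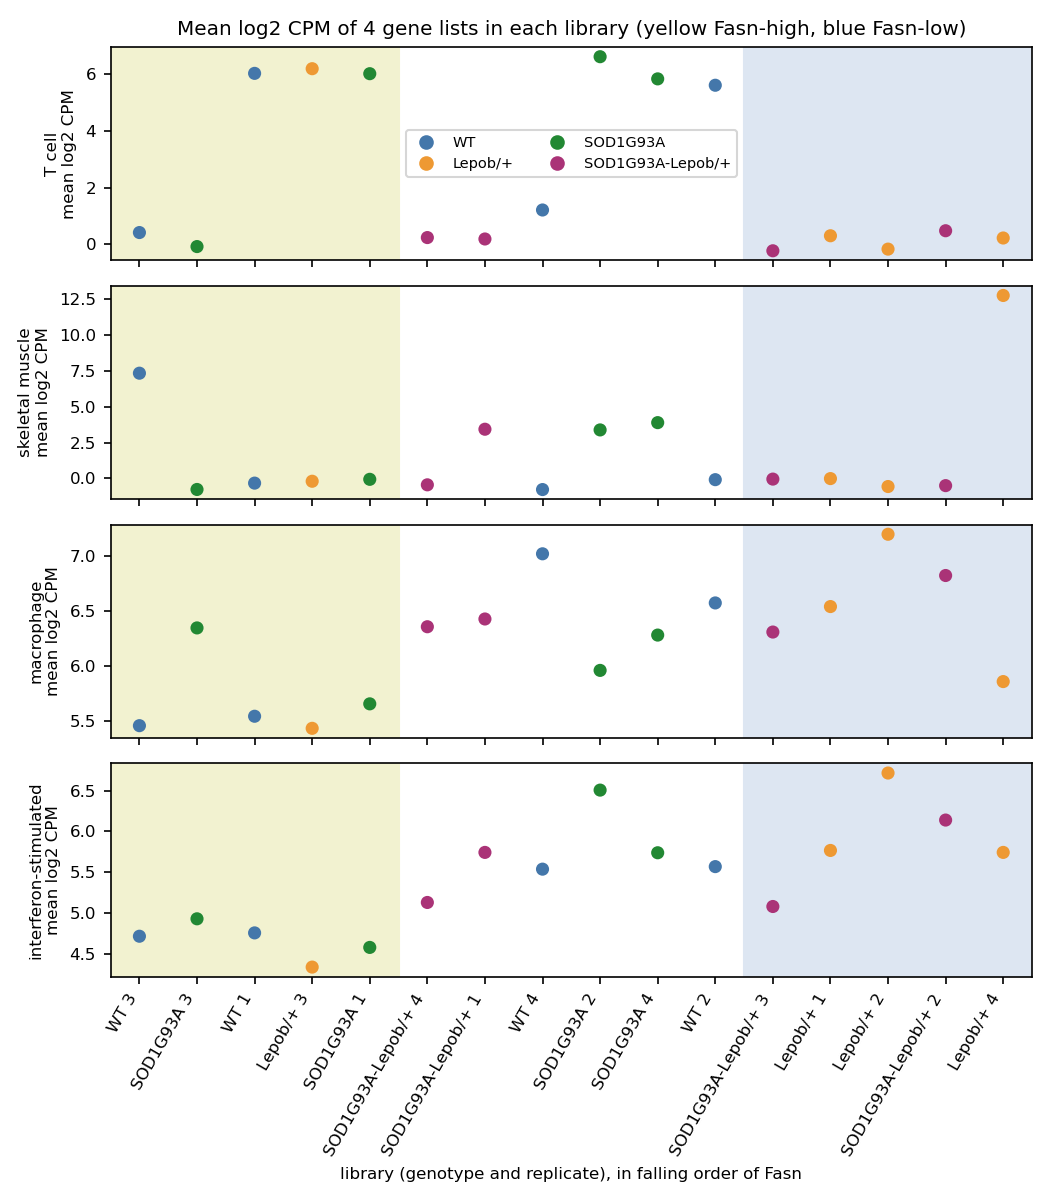
Mean log2 CPM of the T cell, skeletal muscle, macrophage and interferon-stimulated gene lists in each library, coloured by genotype. The T cell list is high in 3 of 5 Fasn-high (yellow) and none of the Fasn-low (blue) libraries, the muscle list in Lepob/+ 4, and the interferon-stimulated list is lower in all 5 Fasn-high than in all 5 Fasn-low libraries.

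Of the 35 lists, the interferon-stimulated genes held the most genes lower in the Fasn-high set. These genes are switched on by interferons, and many carry an interferon-stimulated response element in their promoter. Of 18 genes, 9 were lower without overlap (Isg15, Ifit1, Oas1a, Irf7, Zbp1, Ifit2, Mx2, Bst2 and Gbp3), 17 had a lower mean and the median difference was -1.30. Isg15 was at 13.5, 11.5, 12.3, 7.72 and 12.4 CPM in the Fasn-high libraries and at 18.9, 36.2, 100.1, 53.9 and 46.5 CPM in the Fasn-low libraries. Ifit1 was at 20.0, 24.4, 19.6, 9.98 and 19.5 CPM in the Fasn-high libraries and at 35.2, 52.2, 118, 77.1 and 61.7 CPM in the Fasn-low libraries. For both, Lepob/+ replicate 3 was lowest and Lepob/+ replicate 2 highest, and the library labelled SOD1G93A-Lepob/+ replicate 3 lay nearest to the Fasn-high set. Oas1a and Oas1g, of the oligoadenylate synthetases that sense viral RNA, differed by -1.80 and -2.0, and Irf7, a factor that amplifies interferon production, by -1.56. Cxcl9, which is induced by interferon gamma, differed by 0.15. With SOD1G93A replicate 2 in place of SOD1G93A replicate 3, as in the ranking of Fasn relative to Adipoq, Plin1 and Cidec, 0 of the 18 genes were called, and among the libraries with a low T cell list 3 were. Without the library labelled SOD1G93A-Lepob/+ replicate 3 the count was 14, and without Lepob/+ replicate 2 or without Lepob/+ replicate 3 it was 6.

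Promoters from RefSeq (build GRCm38.p6), from 250 bases before to 50 after the start site, were searched on both strands for the letters of the interferon-stimulated response element, GAAANNGAAA, for CCAAT, for the E-box CACGTG and for the sterol response element TCACNCCAC. Capitals mark any of these matches, and matches on the opposite strand appear as their complement. Fasn and Pcx are shown for the lipogenic group and Isg15 and Ifit1 for the interferon-stimulated group, 5′ to 3′ along the gene. They do not stand for all called genes. In the promoter used, 1 for each gene, Acaca, Elovl6, Slc2a5, Agpat2, Tkt, Aacs, Nrg4, Angptl8 and Irf7 held 0 matches of any of these motifs. The promoter used for Acaca (chr11:84195188-84195487, plus strand) lies within the gene, which starts at 84129672. That of Nrg4 (chr9:55283576-55283875, minus strand) also lies within the gene, which spans 55220222 to 55326844. Other start sites of these genes are not described here. The Fasn promoter (chr11:120824498-120824797, minus strand) held 3 CCAAT matches, 2 of which overlap on opposite strands, and the Pcx promoter (chr19:4510222-4510521, plus strand) held 3 CCAAT matches and 1 E-box. The Isg15 promoter (chr4:156200769-156201068, minus strand) held 3 overlapping matches of the response element and the Ifit1 promoter (chr19:34640639-34640938, plus strand) held 2.
Fasn: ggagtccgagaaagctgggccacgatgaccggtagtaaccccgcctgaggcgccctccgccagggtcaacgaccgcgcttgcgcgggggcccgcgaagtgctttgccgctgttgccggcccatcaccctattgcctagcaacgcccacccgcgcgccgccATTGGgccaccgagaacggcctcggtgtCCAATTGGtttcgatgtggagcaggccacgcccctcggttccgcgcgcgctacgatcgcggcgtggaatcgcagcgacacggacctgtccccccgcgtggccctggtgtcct
Pcx: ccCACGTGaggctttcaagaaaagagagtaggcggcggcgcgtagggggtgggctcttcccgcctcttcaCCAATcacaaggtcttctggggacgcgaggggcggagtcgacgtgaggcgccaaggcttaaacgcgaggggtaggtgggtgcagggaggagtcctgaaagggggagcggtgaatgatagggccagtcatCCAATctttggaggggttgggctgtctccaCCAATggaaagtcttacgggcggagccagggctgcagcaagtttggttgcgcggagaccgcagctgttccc
Isg15: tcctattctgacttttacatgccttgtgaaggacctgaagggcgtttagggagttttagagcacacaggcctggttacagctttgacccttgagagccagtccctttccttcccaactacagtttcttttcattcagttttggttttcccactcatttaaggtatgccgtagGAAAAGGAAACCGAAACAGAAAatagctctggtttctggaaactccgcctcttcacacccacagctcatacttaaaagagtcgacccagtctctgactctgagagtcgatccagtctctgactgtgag
Ifit1: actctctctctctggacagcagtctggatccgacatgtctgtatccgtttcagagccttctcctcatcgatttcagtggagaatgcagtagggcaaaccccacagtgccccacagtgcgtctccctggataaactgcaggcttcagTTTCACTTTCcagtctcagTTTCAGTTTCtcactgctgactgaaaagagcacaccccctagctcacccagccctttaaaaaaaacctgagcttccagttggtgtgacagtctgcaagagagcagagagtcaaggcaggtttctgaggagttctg

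A promoter was matched by symbol for 61 of the 110 higher and 74 of the 119 lower genes. The response element was found in 9 of the 74 promoters of lower genes (12.2%), in 0 of the 61 of higher genes and in 3.27% of the 12921 measured genes with a promoter, 1 promoter each. It was in 3.45% of all 32544 promoters. In the interferon-stimulated list, 8 of 13 promoters held it (61.5%). The lower genes include 9 called members of that list, so the share among lower genes is not separate from it. CCAAT was found in 34.4% of the higher and 37.8% of the lower genes, against 38.0% of measured genes and 37.4% of all promoters. The E-box was found in 5 of the 61 (8.20%) and 3 of the 74 (4.05%), against 9.44% of measured genes and 7.17% of all promoters. The sterol element was in 0 of either group, against 1.14% and 1.24%. A match describes the letters only.

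A few macrophage and chemokine genes were also lower with high Fasn. Of 21 macrophage genes, 20 had a lower mean (median -0.99) and 2 did not overlap. These were C1qb, a chain of complement C1q, and Lyve1, a hyaluronan receptor of lymphatic vessels and some tissue macrophages. C1qb was at 161, 275, 152, 141 and 164 CPM in the Fasn-high libraries and at 289, 367, 895, 511 and 278 CPM in the Fasn-low libraries. Lyve1 was at 17.1, 62.2, 23.4, 23.7 and 44.7 CPM in the Fasn-high libraries and at 94.8, 96.7, 206, 109 and 62.9 CPM in the Fasn-low libraries. In C1qb and Lyve1 the highest Fasn-high library was SOD1G93A replicate 3, which nearly reached the lowest Fasn-low library, Lepob/+ replicate 4. The summed level of the macrophage list overlapped, at 4859 to 12641 CPM against 5628 to 11594 CPM. Of 16 inflammatory cytokine genes, 2 were lower without overlap, 10 had a lower and 6 a higher mean, and the median difference was -0.37. The 2 called genes, Ccl2 and Ccl7, chemokines that attract monocytes, were at 2.1 to 4.05 and 1.31 to 5.37 CPM in the Fasn-high set, and at 5.57 to 8.85 and 8.25 to 18 CPM in the Fasn-low set. Ccl5, a chemokine that T cells make, had the highest difference of the list, 3.37, with overlap. Fpr2, a formyl peptide receptor of myeloid cells, was at 0.194 to 0.454 against 0.930 to 10.3 CPM. The part of macrophage number in these differences was not tested.

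Other genes that were lower came from several groups. Atf3, a stress-induced transcription factor, was at 8.32, 7.08, 6.05, 4.27 and 6.16 CPM in the Fasn-high libraries and at 9.80, 10.6, 13.2, 15.1 and 18.8 CPM in the Fasn-low libraries. Flnc, the filamin of muscle, was at 68.2, 51.8, 59.5, 53.6 and 1603 CPM in the Fasn-low set, and at most 45.2 CPM in the Fasn-high set. Its log2 difference of -1.93 includes the muscle-rich library, Lepob/+ replicate 4, which was far above the other 4. Adcy2, an adenylyl cyclase, was also highest in that library, at 26.8 CPM, against 5.99 to 7.31 CPM in the other 4. Slc6a2, the noradrenaline transporter, Cngb3, a cyclic nucleotide-gated channel subunit, and Olfr56, an olfactory receptor, differed by -1.91, -2.80 and -2.36, at up to 5.60 CPM. Of 24 collagen and matrix genes, 23 had a lower mean (median -0.94) and none was called.

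In all, 14 of the 35 lists held a called gene and 21 held none. Fatty acid oxidation (median 0.18), fatty acid uptake (-0.06), insulin signalling (-0.11), branched-chain amino acid breakdown (0.12), the glucocorticoid and fasting response (-0.27) and the circadian clock (0.18) were among those without a call.

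**Figure D4:**
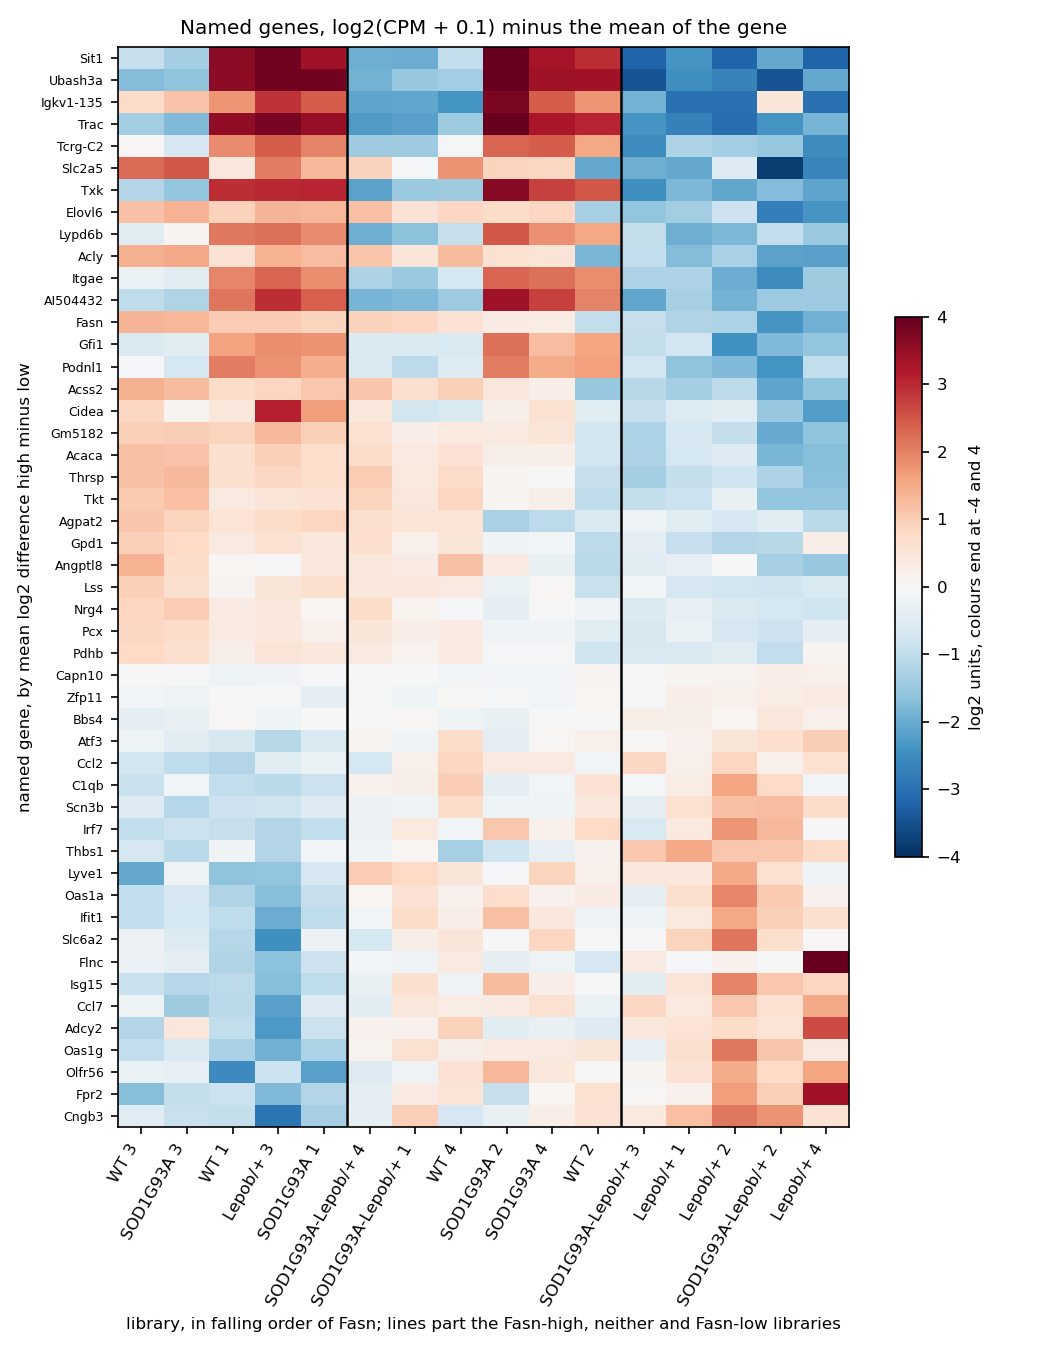
Named genes by library, as log2(CPM + 0.1) minus the mean of the gene over 16 libraries, from blue (lower) to red (higher), with lines between the Fasn-high, neither and Fasn-low libraries. Lipogenic genes fall from left to right with WT 2 among the low libraries, T cell genes are red in 6 libraries in 2 of the 3 blocks, and Flnc is highest in Lepob/+ 4.

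Over all 16 libraries, the genes whose log2 CPM was most like Fasn by Pearson's r were Acss2 (0.980), Elovl6 (0.974), Acaca (0.973), Gm5182 (0.970) and Acly (0.965), among genes with a mean of at least 1 CPM. Gm5182 is annotated as a processed pseudogene, so its counts may include reads of another gene. The genes most opposed were Zfp11 (-0.821), Scn3b (-0.821), Capn10 (-0.812), Thbs1 (-0.810) and Bbs4 (-0.796). These values are descriptions, since each gene shares its library and its scaling with Fasn. Zfp11, Capn10 and Bbs4 changed little in level, with log2 differences between the sets of -0.37, -0.22 and -0.40. Thbs1 was at 44.2, 33.6, 64.1, 31.6 and 65.5 CPM in the Fasn-high libraries and at 151, 202, 150.4, 150.0 and 120.1 CPM in the Fasn-low libraries. Thbs1, the matrix protein thrombospondin 1, was lower in each Fasn-high library than in each Fasn-low library, as was Scn3b, a sodium channel subunit.

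The widest step in Fasn splits the 16 libraries into 10 above and 6 below it, a division chosen after the data were seen. With it, 26 of 19736 genes were higher in all 10 than in all 6 libraries, with means at least 1 apart on the log2 scale, and 3 were lower. Of the 26, 6 were in the fatty acid synthesis list, beside Fasn, whose own step made the division. Both sets of 5 lie within this division, so a gene apart in it is also apart between the sets. Outside fatty acid synthesis these included Slc2a5, Thrsp, Tkt, Pygl, a glycogen phosphorylase, Aacs, which makes acetoacetyl-CoA from ketone bodies, and Sorl1, a sorting receptor. Slc2a5 was at 7.79 to 46.3 CPM above the step and 0.500 to 5.74 CPM below it. The 3 lower genes were Peg3, Gm37795 and Thbs1, with Thbs1 at 27.8 to 74.3 CPM above and 78.9 to 202 CPM below the step. The 29 genes included 0 of the 18 interferon-stimulated and 0 of the 20 T cell genes. With so few calls among all genes nothing is read from these counts. WT replicate 2, with a high T cell list, also lies below the step.

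The 6 libraries that the ranking had put in neither set allowed a test on samples the contrast did not use. In them the slope of each gene on log2 Fasn CPM was tested with edgeR, without a genotype term. The 2 SOD1G93A-Lepob/+ libraries were the highest in Fasn of these 6 (12416 and 11681 CPM), so Fasn and genotype cannot be fully told apart here either. Of 19735 genes, 0 passed the threshold (0%), the smallest adjusted p being 0.279, while 804 had an unadjusted p under 0.05, 674 with a positive and 130 with a negative slope. DESeq2 on the same libraries called 139 of these 19735 genes, 135 of them positive. Among the 139 were 16 of the 109 genes, Fasn left out, that were higher in the Fasn-high set. These were Acly, Acss2, Elovl6, Acaca, Me1, Slc25a1, Thrsp, Tkt, Gpd1, Pdhb, Lss, Gys2, Gbe1, Gm5182, Gm7049 and Gm7329. DESeq2 was not run without WT replicate 2, the lowest of the 6 libraries in Fasn. Of the 109 higher genes other than Fasn, 58 had a positive slope (53.2%, against 51.9% of all genes), and of the 119 lower genes 43 had a negative slope (36.1%, against 48.1%).

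The lipogenic genes kept their direction in these libraries. The slope, in log2 units per log2 unit of Fasn (± SE, n = 6), was 1.52 ± 0.33 for Acly, 1.33 ± 0.18 for Acss2, 1.67 ± 0.67 for Slc2a5, 0.97 ± 0.20 for Tkt and 0.93 ± 0.19 for Thrsp, with edgeR adjusted p-values of 0.478 for Acss2 and 0.903 for the others. Gpd1 (0.84 ± 0.17), Lss (0.72 ± 0.13), Pdhb (0.60 ± 0.12) and Pcx (0.48 ± 0.15) had positive slopes too. WT replicate 2 alone supplied the low end of this range. Without it the slopes were 0.93 ± 0.50 for Tkt, 1.23 ± 0.50 for Thrsp, 1.06 ± 0.44 for Gpd1, 0.96 ± 0.41 for Acss2 and 0.47 ± 0.62 for Acly, and that of Slc2a5 was -0.60 ± 1.11.

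The T cell genes ran the other way. All 20 T cell genes had a negative slope in the 6 libraries (median -2.81), where the 3 libraries with a high T cell list were the 3 lowest in Fasn, whereas in the contrast all 20 had a higher mean in the Fasn-high set. Trac, for example, was at 1.57, 1.68, 2.91, 152, 76.4 and 66.7 CPM in these 6. Of the 18 interferon-stimulated genes, 8 had a positive slope (median -0.03), and Isg15 was at 20.6, 39.8, 23.0, 60.9, 30.3 and 25.4 CPM, with a slope of 0.09 ± 0.40. With the mean of the T cell list as a covariate, 89 of the 109 higher genes had a positive slope and 77 of the 119 lower genes a negative slope, against 56.6% positive over all genes, and again 0 genes passed in edgeR.

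**Figure D5:**
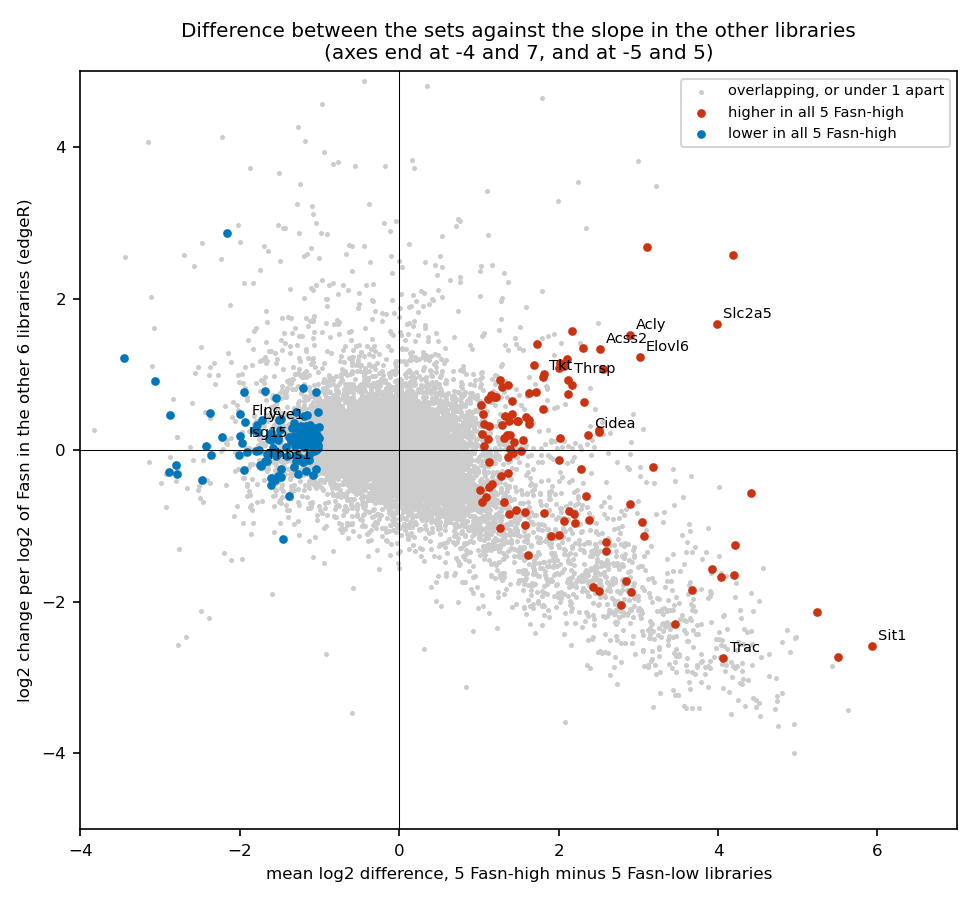
Each gene's mean log2 difference between the sets (x axis) against its edgeR slope on log2 Fasn in the 6 libraries of neither set (y axis, log2 units per log2 unit of Fasn). Acly, Acss2, Elovl6, Slc2a5, Thrsp and Tkt lie at the upper right, Sit1 and Trac at the lower right, and the genes lower in the Fasn-high set (blue) lie around a slope of 0.

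Libraries chosen only from those with a low T cell list gave a contrast with lower, though not absent, lymphocyte transcripts. The 4 highest (WT replicate 3, SOD1G93A replicate 3 and SOD1G93A-Lepob/+ replicates 4 and 1) against the 4 lowest in Fasn gave 134 higher and 139 lower genes, of which 51 and 17 were shared with the contrast of 5 against 5. This division also placed SOD1G93A-Lepob/+ libraries on both sides. When genes and Fasn were centred on the genotype mean, 52 genes were higher and 18 lower, of which 33 and 6 were shared, and 0 of the 18 interferon-stimulated genes were called. The count of 7 calls in the fatty acid synthesis list, Fasn included, stayed within 1.5 times in each of the 26 alternatives. Fasn sets the ranking and most alternatives reuse the same libraries, so this count is a description. As a last description, the 2 libraries highest in Fasn were compared with the 2 lowest within each genotype, which largely reuses the same libraries. Of the 109 higher genes, 58 were higher in all 4 genotypes (53.2%, against 7.30% of all genes), and of the 119 lower genes, 65 were lower in all 4 (54.6%, against 7.43%). Since the libraries are largely those that chose the genes, nothing is read from these shares.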

How the data were processed

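The authors extracted RNA from iWAT, trimmed reads with fastp (Phred under 30 or under 30 bases removed), aligned them to mm10 (GRCm38) with HISAT2 2.1.0 and tallied those that mapped uniquely with featureCounts 2.0.2. The deposited values are raw gene counts for 54752 Ensembl IDs, of which 54723 were paired with a symbol. The labels name a NEBNext Ultra kit and the paper a TruSeq Stranded mRNA kit, and the strand setting and annotation release were not given in the sources used here, so overlapping and antisense genes cannot be told apart.

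The filter was filterByExpr, grouping by genotype (minimum count 10, minimum total count 15), which left 19736. Counts were scaled by TMM, with a prior count of 1 on the log2 scale, and analysed in R 4.3.3 with edgeR 4.0.16 (robust quasi-likelihood test, Benjamini-Hochberg adjustment, threshold 0.05) and, as an alternative, DESeq2 1.42.0. Slopes were fitted on the 6 libraries of neither set, without a genotype term, and genotype contrasts on all 16. Replicate numbers are labels, and p-values measure the spread between mice. The steps were tested on simulated data.

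Named genes are Fasn, Acly and Acaca; the 12 highest and 12 lowest called genes with a mean of at least 1 CPM outside fatty acid synthesis, predicted genes left out; up to 4 called members of each of 35 lists; and the 5 genes most like and most opposed to Fasn. The libraries, members and lists were chosen with earlier results of these data known. Glycogen genes and others named outside this rule were chosen after their values were seen. Promoters are those of RefSeq (GRCm38.p6).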

Additional observations from a re-analysis of the deposited data

Results flagged for a closer look

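Of 180 groups of library values examined (named genes and gene lists in each set, and Fasn, Acly and Acaca in each genotype), 14 (7.78%) held a library far from the others by Dixon's criterion, and chance flags about 1 group in 20. All values here are log2 CPM, and no cause was tested.

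In the Fasn-high set, Lepob/+ replicate 3 stood apart for Gm5182 (7.02, next 6.72), Ifit1 (3.32, next 4.29) and Isg15 (2.95, next 3.53). SOD1G93A replicate 3 stood apart for C1qb (8.10, next 7.36) and for the mean of the macrophage list (6.35, next 5.66). WT replicate 3 stood apart for the mean of the skeletal muscle list (7.32, next -0.058).

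In the Fasn-low set, Lepob/+ replicate 4 stood apart for Flnc (10.65, next 6.09) and Adcy2 (4.75, next 2.87). The same library stood apart for the list means of skeletal muscle (12.73, next -0.0068), glucose uptake and glycolysis (8.46, next 7.07), the glucocorticoid and fasting response (7.14, next 6.42), the circadian clock (5.76, next 5.16) and adipocyte progenitors and fibroblasts (6.14, next 6.71). The library labelled SOD1G93A-Lepob/+ replicate 3 stood apart for Lss (4.63, next 4.12).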

How the results depend on the processing

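Against 110 higher and 119 lower genes in the contrast of 5 libraries with 5, leaving out each library gave 122 to 281 higher and 110 to 366 lower. Fewer libraries in a set loosen the separation rule. A rise in each alternative with fewer libraries was therefore largely fixed in advance. Ranking Fasn after TMM or DESeq2 size factors, which exchanged a library in each set, gave 80 higher and 78 lower genes by either scaling. Of the 110 higher and 119 lower genes, only 52 and 41 were called again with this ranking. Ranking Fasn relative to Adipoq, Plin1 and Cidec gave 261 higher and 250 lower, 4 against 4 libraries 179 and 203, 3 against 3 libraries 296 and 295, centring on the genotype mean 52 and 18, no minimum difference 253 and 322, and a minimum of 2 on the log2 scale 53 and 15. CPM of the column total gave 58 lower genes. Alternatives added after seeing the data gave 237 higher and 595 lower without the muscle-rich and the Xist-negative Fasn-low library, 255 and 301 without the 3 lymph node-rich Fasn-high libraries, and 26 and 3 across the widest step in Fasn. None of the 46 called named genes changed direction in the 26 alternatives, over 1196 values. This was largely fixed in advance. A gene without overlap cannot reverse when libraries of a set are left out or the filter changes. Most other alternatives reuse the same libraries, so nothing is read from this count.

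In the 6 libraries of neither set, edgeR called 0 genes in every alternative and DESeq2 called 139, and the cause was not tested. The Fasn contrast of SOD1G93A against WT ran from -0.25 (without WT replicate 2) to 0.36 when each library was left out, and was -0.19 without SOD1G93A replicate 3. That of Lepob/+ against WT ran from -2.14 to -0.76 and that of SOD1G93A-Lepob/+ against SOD1G93A from -1.03 to -0.29, and no alternative passed the threshold.

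Same-numbered libraries did not deviate together throughout: of 24 pairs, 5 had a correlation of residuals over 0.1 and 8 under -0.1. Of 16 libraries, 1 was most like a library of its own number. The WT and SOD1G93A libraries of replicates 1, 2 and 3 did deviate together, with correlations of 0.41, 0.41 and 0.52. For replicate 4 this correlation was -0.31. With the replicate number as a block, 0 genes were called in the 6 libraries, and the Fasn contrasts were -1.08, 0.27 and -0.76.

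Genes near 0 counts in a set, such as Sit1 in the Fasn-low libraries, rest on few reads there.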

Other observations

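Genes of glycogen metabolism, a group put together after the values were seen, held a few called genes. Of 14 genes, 3 were higher in the Fasn-high libraries without overlap: Gys2, the glycogen synthase of liver and fat, Gbe1, the branching enzyme, and Pygl, the liver-type phosphorylase. Gys2 was at 64.0, 36.0, 47.5, 31.4 and 48.5 CPM in the Fasn-high libraries and at 22.0, 12.1, 11.9, 9.92 and 14.9 CPM in the Fasn-low libraries. Gbe1 was at 136, 155, 89.3, 112 and 94.9 CPM in the Fasn-high libraries and at 58.2, 52.3, 50.9, 36.7 and 74.1 CPM in the Fasn-low libraries. Pygl was at 297 to 506 against 99.1 to 206 CPM. The log2 differences were 1.69, 1.11 and 1.22, and the slopes in the 6 libraries of neither set were 1.12 ± 0.19, 0.67 ± 0.12 and 0.70 ± 0.19, none past the threshold in edgeR. Gys1, the muscle-type synthase, differed by 0.01 with overlap, at 539.7 CPM in the muscle-rich Lepob/+ replicate 4. The median difference of the 14 genes was -0.26.

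Gm49368, which lies on chromosome 7 and was left out of the named genes as a predicted gene, had the largest negative difference of all called genes. It was at 0 to 15.5 CPM in the Fasn-high and at 28.7 to 56.4 CPM in the Fasn-low libraries. Its assignment is uncertain where gene models overlap.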
